A study of Homo sapiens with 12 samples.

Results

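The 39 genes described here encode the subunits, inhibitors and adaptors of the NF-κB pathway and the chemokines, cytokines, adhesion molecules and proteases whose genes NF-κB is known to control. They were taken by symbol, with no threshold on a measured value. Of the 39 symbols, 38 had a gene in the deposited counts, which hold 58037 genes in all, and SOD2, the gene of mitochondrial superoxide dismutase, was not matched and is not analysed here. RNA-seq was performed on DU-145/tet-MUC1shRNA and LNCaP-AI/tet-MUC1shRNA cells, which carry a doxycycline (DOX)-inducible shRNA against MUC1, after 7 days with vehicle or with DOX at 500 ng/ml. Each of the 4 groups had 3 samples, 12 in all. DU-145 is an established prostate cancer line that lacks androgen receptor signaling. LNCaP-AI is an androgen-independent line obtained by culturing C4-2B cells, a derivative of the LNCaP prostate cancer line, without androgens. The sample labels give a medium free of phenol red with charcoal-stripped serum for both lines, whereas the study's methods give it for LNCaP-AI and name ordinary fetal bovine serum for DU-145. The sample labels name the groups shCTL and shMUC1, whereas the study's methods describe vehicle and DOX treatment of cells that all carry the MUC1 shRNA, and the names vehicle and DOX are used here. Cells with a control shRNA under DOX are not analysed here, so the effects of DOX and of the MUC1 shRNA cannot be told apart. Each line is a single derivative cultured in triplicate, so the p-values measure the spread between these cultures, which may be partly technical.

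NF-κB is a family of dimeric transcription factors, built from the proteins of NFKB1, NFKB2, RELA, RELB and REL. In resting cells the inhibitors of the IκB family, such as NFKBIA, hold the dimers in the cytoplasm. Signals from tumor necrosis factor, interleukin-1 and Toll-like receptors lead, through adaptors such as TRAF2, BIRC2 and BIRC3, to phosphorylation and loss of the inhibitors, and the freed dimers switch on chemokine and cytokine genes. NFKBIA, TNFAIP3 and TNIP1 are themselves targets and act as brakes. In prostate cancer cells the pathway is known for its link to androgen-independent growth.

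The targeted gene MUC1 (GRCh38 chromosome 1, 155185824 to 155192916, minus strand) was counted at 74, 60 and 59 in DU-145 with vehicle and at 3 in each DU-145 DOX sample, which is the floor used here. In LNCaP-AI cells MUC1 had 36, 25 and 52 counts with vehicle and 8, 6 and 3 with DOX, and the groups did not overlap in either line. Total counts ranged from 10423437 to 13544153 in DU-145 and from 16569613 to 26961777 in LNCaP-AI samples. The LNCaP-AI samples did not divide by treatment. Their first principal component, with 82.5% of the variance, set vehicle 2, vehicle 3 and DOX 1 apart from vehicle 1, DOX 2 and DOX 3, and the second, with 12.3%, parted vehicle from DOX. Because many of the 38 genes followed the first division, the LNCaP-AI values are given library by library.

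Promoter sequences are shown for 4 chemokine genes of one cluster on chromosome 4, because CXCL1, CXCL2 and CXCL3 moved together between LNCaP-AI libraries while CXCL5 was near 0 there. CXCL1 lies on the plus strand of chromosome 4 (GRCh38) from 73869393 to 73871308, and CXCL5 (73995642 to 73998677), CXCL3 (74036589 to 74038807) and CXCL2 (74097040 to 74099196) lie on the minus strand. The 250 bases before the RefSeq start (GRCh38.p14) are written 5′ to 3′ on the strand of the gene, and capitals mark the letters that match the NF-κB consensus.
CXCL1: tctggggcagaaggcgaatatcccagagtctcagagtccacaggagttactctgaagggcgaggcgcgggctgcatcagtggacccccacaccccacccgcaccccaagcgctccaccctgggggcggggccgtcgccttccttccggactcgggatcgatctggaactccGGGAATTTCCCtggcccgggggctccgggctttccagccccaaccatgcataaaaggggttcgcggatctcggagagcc
CXCL2: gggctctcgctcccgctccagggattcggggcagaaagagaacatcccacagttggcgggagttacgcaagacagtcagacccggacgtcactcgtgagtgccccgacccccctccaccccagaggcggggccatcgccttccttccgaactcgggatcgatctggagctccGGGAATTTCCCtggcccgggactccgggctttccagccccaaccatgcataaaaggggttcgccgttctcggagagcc
CXCL3: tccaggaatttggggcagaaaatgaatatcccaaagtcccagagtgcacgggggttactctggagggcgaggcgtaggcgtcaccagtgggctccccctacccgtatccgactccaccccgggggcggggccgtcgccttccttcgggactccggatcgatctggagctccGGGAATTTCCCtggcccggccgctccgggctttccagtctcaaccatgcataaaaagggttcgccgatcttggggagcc
CXCL5: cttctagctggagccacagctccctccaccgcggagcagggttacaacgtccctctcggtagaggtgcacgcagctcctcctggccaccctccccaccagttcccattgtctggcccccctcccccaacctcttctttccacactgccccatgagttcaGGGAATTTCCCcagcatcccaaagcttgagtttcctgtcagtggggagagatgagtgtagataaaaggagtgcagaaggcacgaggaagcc
The windows are chr4:73869143-73869392 on the plus strand for CXCL1, and chr4:74099196-74099445, chr4:74038690-74038939 and chr4:73998678-73998927 on the minus strand for CXCL2, CXCL3 and CXCL5. The capitals hold a match on each strand, offset by 1 base. They begin 79, 78, 79 and 91 bases before the start of CXCL1, CXCL2, CXCL3 and CXCL5, and their letters were the same in all 4 promoters. The RefSeq promoter table used here had an entry for 34 of the 39 genes. A match to the consensus, searched on both strands over 250 bases, was found in 14 of the 34 (41.2%) and in 2614 of all 27305 promoters (9.57%). The other 10 were those of BIRC3, CCL20, IL32, IL6, LTB, NFKB1, NFKBIA, NFKBIZ, REL and TNFAIP3. A match is a description of the letters and not a measured site. NFKBIE, RELB, CCL2, LIF and CSF1 were not searched.

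**Figure D1:**
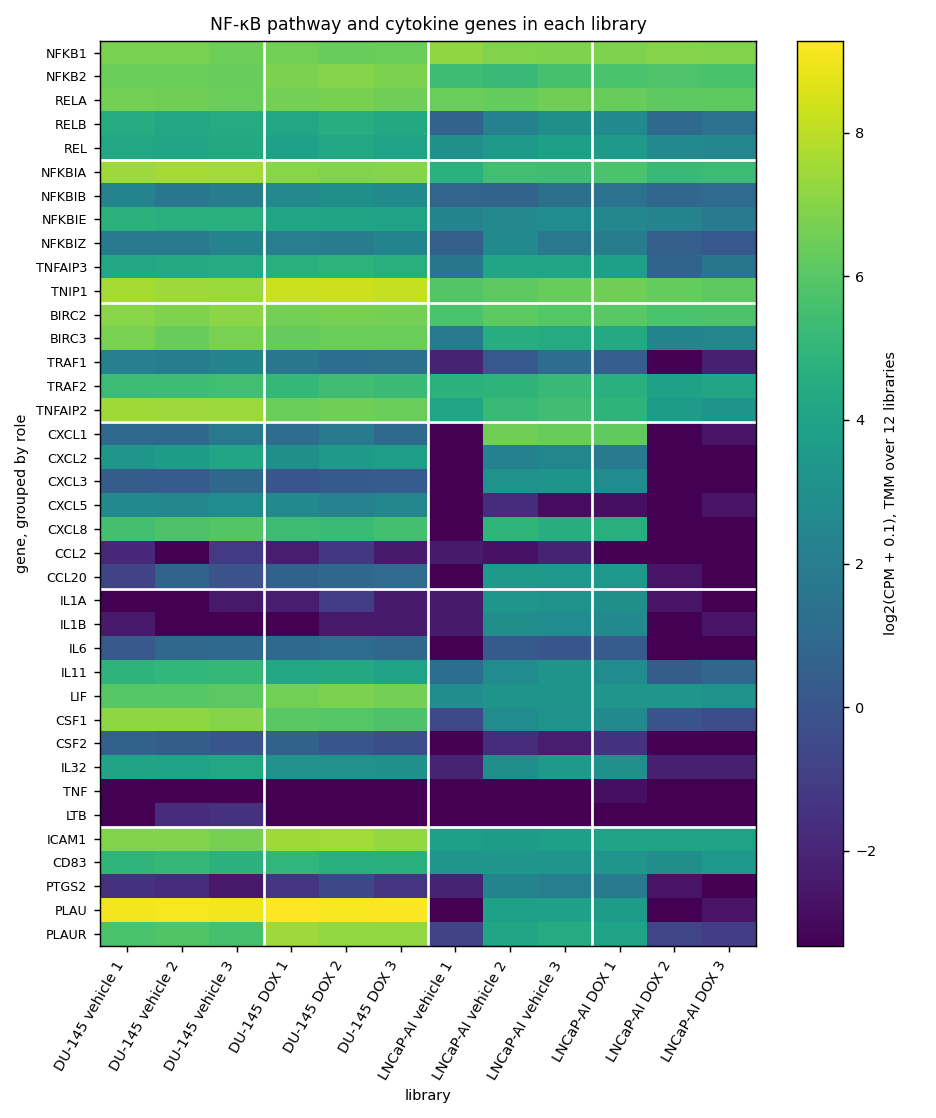
Level of each of the 38 genes in the 12 libraries as log2(CPM + 0.1), with TMM normalization over all libraries. White lines part the groups of samples and the roles of the genes. In DU-145 the columns of one treatment look alike. In LNCaP-AI many chemokine, interleukin and protease genes are brighter in vehicle 2, vehicle 3 and DOX 1 than in vehicle 1, DOX 2 and DOX 3. CXCL5, CCL2, CSF2, TNF and LTB are dark in every LNCaP-AI library, and LIF is level.

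In DU-145 cells DOX moved the genes of the pathway in both directions. Of the 38 genes, 32 passed the filter on low counts, 8 rose with DOX, 9 fell and 15 did not pass the test (edgeR's quasi-likelihood test, adjusted p under 0.05). Among all 13644 genes tested, 26.3% rose and 25.3% fell, so that 17 of 32 was close to the share among all genes. A fit of all 12 samples, in which the LNCaP-AI samples enter the estimate of spread, called 5 (NFKB2, ICAM1, LIF and TNIP1 higher, NFKBIE lower). The median log2 fold change was -0.17 over the 32 genes and 0.0006 over all genes. The 6 genes that did not pass the filter were IL1A, IL1B, TNF, LTB, PTGS2 and CCL2, with no count above 7 in any DU-145 sample. In the following, levels are counts relative to library size (CPM) after TMM normalization within a line, and each fold change is DOX against vehicle with its standard error (SE).

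Of the 5 subunit genes, only NFKB2 passed the test in DU-145. NFKB2, which encodes the precursor subunit of the non-canonical pathway, stood at 81.7, 80.5 and 77.6 CPM with vehicle and at 105, 119 and 104 with DOX. All 3 DOX samples lay above all vehicle samples, and the log2 fold change was 0.45 (SE 0.0725, adjusted p = 3.43e-05). RELA, the main transactivating subunit, was at 94.6, 87.3 and 81.2 CPM with vehicle and at 93.6, 98.7 and 90.1 with DOX, and the groups overlapped (log2 fold change 0.10, SE 0.0737, adjusted p = 0.26). NFKB1, its usual partner, was at 98.8, 101 and 85.4 CPM with vehicle and at 92.5, 77.6 and 83.4 with DOX (log2 fold change -0.17, SE 0.0812, adjusted p = 0.0878). RELB and REL had log2 fold changes of -0.02 and -0.22 and did not pass the test.

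Of the 6 inhibitors and brakes, 3 rose and 2 fell in DU-145. TNIP1, which binds ubiquitin and restrains signaling upstream of the inhibitors' loss, rose from 178, 165 and 159 CPM to 297, 299 and 276 (log2 fold change 0.80, SE 0.0696, adjusted p = 1.97e-08). NFKBIA, the best known inhibitor, fell from 164, 180 and 177 CPM to 125, 111 and 119 (log2 fold change -0.55, SE 0.07, adjusted p = 2.27e-06). NFKBIE, another inhibitor of the IκB family, fell from 25.3, 23.0 and 22.4 CPM to 16.2, 15.3 and 14.9 (log2 fold change -0.61, SE 0.0979, adjusted p = 3.82e-05). For each of these 3 genes the DOX and vehicle samples did not overlap. NFKBIB, also of that family, rose from 4.60, 2.77 and 3.67 CPM to 5.73, 7.11 and 5.83 (log2 fold change 0.75, SE 0.192, adjusted p = 0.00319). TNFAIP3, a ubiquitin-editing enzyme that ends NF-κB signals, rose by a log2 fold change of 0.35, a call that was lost without vehicle 1 (adjusted p = 0.0682) and without DOX 2 (adjusted p = 0.0533). NFKBIZ, a nuclear member of the IκB family, did not pass the test (log2 fold change 0.16, adjusted p = 0.551).

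Of the 5 adaptor, survival and response genes, none rose and 3 fell in DU-145. TNFAIP2, a cytoplasmic protein induced by tumor necrosis factor, fell from 168, 164 and 160 CPM to 82.2, 88.1 and 82.8, with the groups far apart (log2 fold change -0.96, SE 0.0671, adjusted p = 1.02e-09). TRAF1, an adaptor of tumor necrosis factor receptors, fell from 4.06, 3.63 and 4.71 CPM to 2.86, 2.15 and 2.28 (log2 fold change -0.78, SE 0.212, adjusted p = 0.00482). BIRC2, a ubiquitin ligase of the receptor complexes, had the smallest of these falls (log2 fold change -0.30, adjusted p = 0.00208). Its paralog BIRC3 and the adaptor TRAF2 had log2 fold changes of -0.21 and -0.14 with adjusted p of 0.0611 and 0.213.

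**Figure D2:**
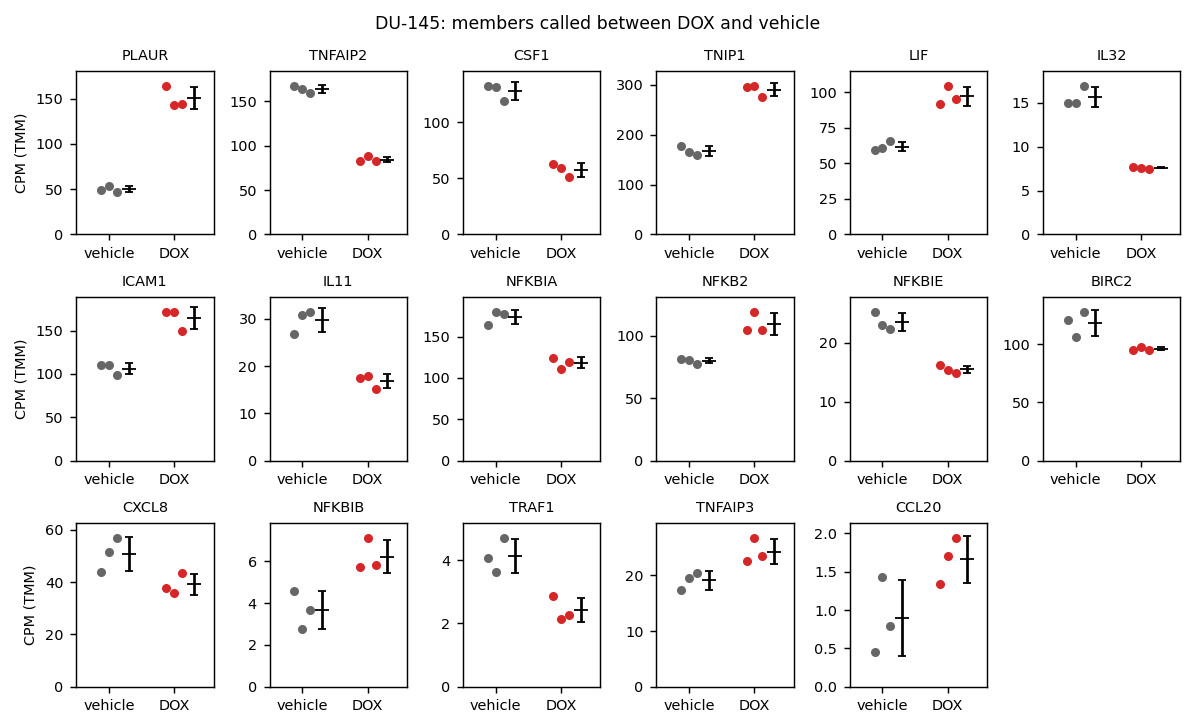
CPM of each of the 17 genes that passed the test in DU-145, with 1 point per sample, grey for vehicle and red for DOX, and the mean ± SD (n = 3) beside them, on axes that start at 0. The vehicle and DOX points lie apart in every panel but that of CCL20, whose highest vehicle sample (1.43 CPM) is above its lowest DOX sample (1.34 CPM).

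Of the 6 chemokine genes tested in DU-145, CXCL8 fell, CCL20 rose and 4 did not pass the test. CXCL8, the neutrophil attractant also known as interleukin-8, was at 44.0, 51.6 and 56.9 CPM with vehicle and at 37.9, 35.9 and 43.6 with DOX, so that the highest DOX sample lay just under the lowest vehicle sample. It fell by a log2 fold change of -0.38 (SE 0.0963, adjusted p = 0.00291). CCL20, which attracts CCR6-bearing lymphocytes, was at 0.46, 1.43 and 0.798 CPM with vehicle and at 1.34, 1.70 and 1.94 with DOX, from 6 to 23 counts a sample. Its log2 fold change was 0.94 (SE 0.365, adjusted p = 0.0378), the groups overlapped, and the call was lost with DESeq2 and without vehicle 1 (log2 fold change 0.59, adjusted p = 0.212), vehicle 3, DOX 2 or DOX 3. CXCL1, CXCL2, CXCL3 and CXCL5, which attract neutrophils through CXCR2, did not pass the test and had log2 fold changes between -0.36 and 0.12. CCL2, a monocyte attractant, had no more than 4 counts in any sample.

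Among the interleukins and growth factors, LIF rose and CSF1, IL32 and IL11 fell in DU-145. CSF1, the macrophage colony-stimulating factor, was at 133, 132 and 119 CPM with vehicle and at 62.6, 58.7 and 50.8 with DOX. Every DOX sample was under every vehicle sample, and the log2 fold change was -1.15 (SE 0.0808, adjusted p = 1.03e-09). IL32, a proinflammatory cytokine, fell from 15.0, 15.0 and 17.0 CPM to 7.69, 7.63 and 7.52 (log2 fold change -1.04, SE 0.121, adjusted p = 7.63e-07). IL11, a cytokine of the interleukin-6 family, fell from 26.9, 30.9 and 31.5 CPM to 17.5, 18.0 and 15.2 (log2 fold change -0.81, SE 0.1, adjusted p = 1.63e-06). LIF, which belongs to the same family and signals through the shared receptor chain IL6ST, moved the other way, from 59.2, 60.7 and 65.4 CPM to 91.6, 105 and 95.2 (log2 fold change 0.65, SE 0.0746, adjusted p = 6.31e-07). IL6 itself was low, at 0.996, 1.72 and 1.75 CPM with vehicle and at 1.79, 2.00 and 1.69 with DOX (log2 fold change 0.31, SE 0.292, adjusted p = 0.392). TNF had 0 counts in every DU-145 sample, which allows up to 3 counts a sample, and IL1A and IL1B had at most 5 and 1.

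PLAUR, the receptor that holds urokinase at the cell surface, had the largest fold change of the 32 genes in DU-145. It was at 49.1, 53.8 and 46.7 CPM with vehicle and at 164, 143 and 143 with DOX, a 3.02-fold rise with the groups far apart (log2 fold change 1.59, SE 0.079, adjusted p = 1.03e-11). PLAU, which encodes urokinase itself, was at 497, 545 and 510 CPM with vehicle and at 589, 532 and 563 with DOX, and the groups overlapped (log2 fold change 0.12, SE 0.0717, adjusted p = 0.184). ICAM1, an adhesion molecule that binds leukocyte integrins, rose from 110, 110 and 98.5 CPM to 172, 171 and 150 (log2 fold change 0.63, SE 0.0747, adjusted p = 1.02e-06). CD83, a surface molecule of activated dendritic cells, did not pass the test, and PTGS2, the inducible cyclooxygenase, had between 1 and 7 counts. Per kilobase of exon, PLAU was the most abundant of the genes in vehicle-treated DU-145, at 186 ± 8.55 (SD, n = 3) CPM per kilobase, followed by NFKBIA at 54.3 ± 2.35. TNFAIP2 (34.4 ± 1.12) and ICAM1 (32.7 ± 2.28) came next and did not differ beyond their spread, nor did ICAM1 and TNIP1 (30.6 ± 2.00). With DOX the order after PLAU was TNIP1, ICAM1, NFKBIA and PLAUR, where TNIP1 (53.0 ± 2.55) and ICAM1 (50.4 ± 4.08) did not differ beyond their spread, nor did NFKBIA (36.9 ± 1.92) and PLAUR (35.6 ± 2.85).

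In LNCaP-AI cells none of the genes passed the test with DOX. Of the 33 genes that passed the filter, edgeR's quasi-likelihood test called 0, where 7.22% of all 16030 genes rose and 5.52% fell. At an unadjusted p under 0.05 the count was 1 gene, TRAF2, and DESeq2 called 1, also TRAF2 (log2 fold change -0.74, SE 0.251, adjusted p = 0.0187). The fit of all 12 samples called 3, TRAF2 again with NFKB2 (log2 fold change 0.31, adjusted p = 0.0469) and ICAM1 (0.27, adjusted p = 0.0429). Without DOX 1, edgeR called TRAF2 (log2 fold change -0.99, adjusted p = 0.014) and TNFAIP2 (-1.59, adjusted p = 0.0419), where 3538 of all 14980 genes were called. The median log2 fold change was -0.83 over the 33 genes and -0.05 over all genes. CXCL5, CCL2, CSF2, TNF and LTB did not pass the filter, with at most 6 counts in any sample. The standard errors of many of the 33 genes were wide, for example 2.42 for CXCL1 and 2.41 for CXCL8, against 0.295 and 0.0963 in DU-145.

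**Figure D3:**
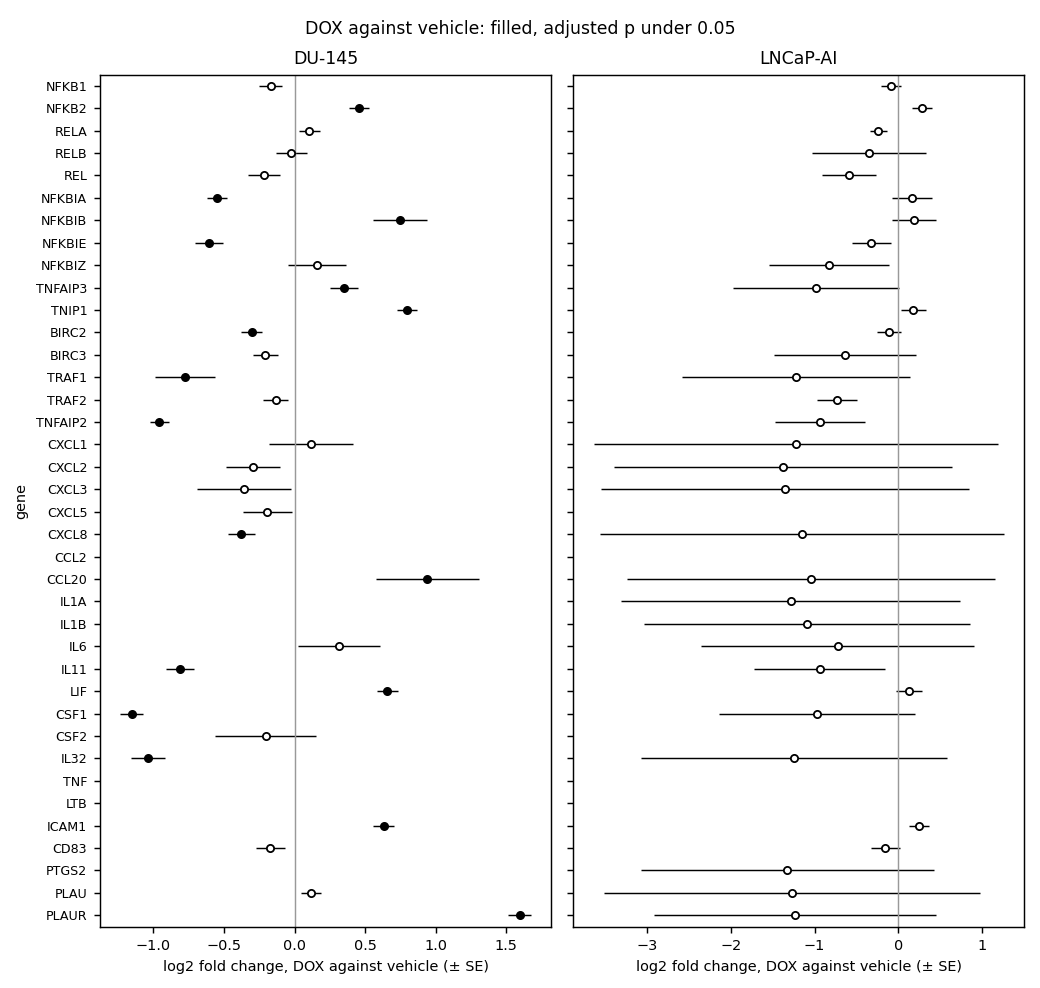
Log2 fold change of each gene, DOX against vehicle, with its standard error, in DU-145 (left) and LNCaP-AI (right), on separate scales. Filled points passed the test at an adjusted p under 0.05 and genes with no point did not pass the filter. In DU-145 17 points are filled, and in LNCaP-AI none is and the bars of the chemokine and interleukin genes span 0.

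Within both treatment groups the libraries differed along the division described above. That division was itself taken from these counts, so the values that follow are descriptions with no test. Of the 33 genes, 24 were higher in each of vehicle 2, vehicle 3 and DOX 1 than in each of vehicle 1, DOX 2 and DOX 3, 1 (NFKB1) was lower and 8 overlapped. Among all 16030 genes, 20.4% were higher and 14.8% were lower in this way. With each library floored at 3 counts, 11 of the 33 genes were over 10-fold higher, against 2.83% of all genes. The counts of 24 and 11 depend on the filter, which required 10 counts in 3 or more samples. Of the 11 genes, all but PLAUR had at most 3 counts in each of vehicle 1, DOX 2 and DOX 3. They passed only through vehicle 2, vehicle 3 and DOX 1, and genes high in fewer libraries could not enter. The same filter applied to all 16030 genes.

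CXCL1 and CXCL8 showed the widest gaps, followed by the protease gene PLAU (at least 70.6-fold) and CCL20 (at least 60.4-fold). CXCL1 had 0, 1726 and 2313 counts in vehicle 1, 2 and 3 and 1825, 0 and 1 in DOX 1, 2 and 3, so that the lowest of the 3 high libraries was at least 434-fold above the floor of the others. In CPM the high libraries stood at 98.1, 85.1 and 78.1. CXCL8 had 0, 571 and 661 counts with vehicle and 594, 0 and 0 with DOX, a gap of at least 135-fold. CCL20 had 0, 206 and 299 counts with vehicle and 254, 1 and 0 with DOX. CXCL2 and CXCL3, the close relatives of CXCL1, followed the same libraries, with 85 to 154 and 160 to 260 counts in the high libraries and 0 in each of the others. CXCL5, whose promoter holds the same match and which lies in the same cluster, had at most 4 counts in any LNCaP-AI library, against 55 to 83 in DU-145.

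The interleukin and growth factor genes divided along the same line. IL1A, one of the 2 main agonists of the interleukin-1 receptor, had 2, 186 and 254 counts with vehicle and 188, 1 and 0 with DOX. IL1B, the other agonist, had 2, 136 and 189 counts with vehicle and 158, 0 and 1 with DOX. Neither gene had more than 5 counts in any DU-145 sample. IL6 was at 0, 1.14 and 0.994 CPM in vehicle 1, 2 and 3 and at 1.20, 0 and 0 in DOX 1, 2 and 3, from counts of 20 to 28 in the high libraries. IL32 had 3, 144 and 323 counts with vehicle and 192, 2 and 2 with DOX. CSF1 was at 0.631, 6.99 and 8.91 CPM with vehicle and at 6.76, 0.90 and 0.71 with DOX. LIF was an exception, with 7.72 to 10.7 CPM in all 6 libraries and no gap between the sides. TNF, the classical inducer of the pathway, had 1 count in DOX 1 and 0 in the others, and LTB had 0 in all 6.

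Proteases and surface molecules were split between the patterns. PLAU had 0, 274 and 420 counts with vehicle and 297, 0 and 1 with DOX, and PLAUR had 11, 320 and 618 with vehicle and 387, 9 and 7 with DOX. The receptor and its ligand therefore followed the same libraries. PTGS2 had 3, 93 and 120 counts with vehicle and 88, 1 and 0 with DOX. ICAM1 (12.7 to 16.6 CPM) and CD83 (7.68 to 11.1 CPM) showed no such gap.

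The genes of the pathway's core differed less between the libraries. NFKBIA was at 28.5, 47.2 and 44.8 CPM with vehicle and at 55.5, 37.9 and 41.2 with DOX, and RELA was at 94.3, 83.8 and 99.6 with vehicle and at 85.1, 74.7 and 75.5 with DOX. NFKB1 was at 158, 126 and 122 CPM with vehicle and at 120, 134 and 126 with DOX, and NFKB2 at 44.6, 39.6 and 51.3 with vehicle and at 54.6, 58.2 and 52.1 with DOX. NFKBIA was higher in each of vehicle 2, vehicle 3 and DOX 1 than in each of the others, by at least 1.09-fold. None of these 4 genes had a gap near those of CXCL1 or CXCL8. Of the brakes and adaptors, TNFAIP3 (3.11, 18.2 and 17.9 CPM with vehicle, 15.1, 1.62 and 3.02 with DOX) and BIRC3 (3.59, 24.3 and 22.4 with vehicle, 21.5, 5.34 and 5.44 with DOX) were lower in each of vehicle 1, DOX 2 and DOX 3 than in the high libraries, whose lowest value was 4.86-fold and 3.96-fold above the highest of the others. TRAF1 had a wider gap, with 3, 19 and 63 counts with vehicle and 31, 0 and 2 with DOX. RELB, the non-canonical subunit, was at 4.83 to 8.06 CPM in the high libraries and at 1.65 to 2.72 in the others. Per kilobase of exon, CXCL1 was the most abundant of the 38 genes in vehicle 2, vehicle 3 and DOX 1 (67.8, 59.0 and 54.6 CPM per kilobase), and was at or near 0 in the other libraries, where RELA or TNIP1 led.

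**Figure D4:**
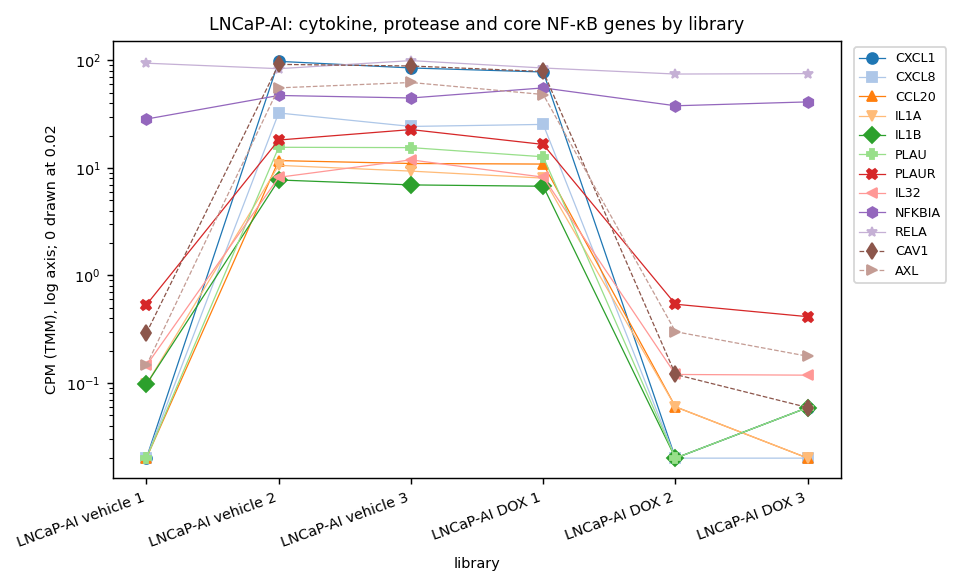
CPM of 10 of the genes and of CAV1 and AXL (dashed), 2 genes of the list that sets DU-145 apart from LNCaP, in the 6 LNCaP-AI libraries on a log axis, with 0 drawn at 0.02 and a line joining the values of one gene. RELA and NFKBIA vary far less (NFKBIA from 28.5 to 55.5 CPM). In contrast, CXCL1, CXCL8, CCL20, IL1A, IL1B, PLAU, PLAUR and IL32 rise in vehicle 2, vehicle 3 and DOX 1 together with CAV1 and AXL.

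Markers of other cells were read in the same libraries. A list of 8 genes that are high in DU-145 and low in LNCaP (CAV1, CAV2, AXL, CD44, EGFR, ANXA1, ANXA3 and TGFBR2) summed to 1175 to 1219 CPM in vehicle 2, vehicle 3 and DOX 1, to 147 to 320 in vehicle 1, DOX 2 and DOX 3, and to 3041 to 3829 in DU-145, with all 8 genes higher on the first side. Of that list, ANXA1 was higher by as little as 1.29-fold, being at 16.1 CPM in vehicle 1 and at 228 to 241 in DOX 2 and DOX 3. In DU-145 it was also higher with DOX (711 to 830 CPM) than with vehicle (401 to 496). The 8 genes of the LNCaP lineage summed to 2773 to 4331 CPM on the first side, 4403 to 5931 on the second and 38.4 to 51.7 in DU-145. Myeloid markers summed to 2.40 to 2.83 against 0.68 to 0.887 CPM, fibroblast markers to 22.3 to 29.6 against 24.7 to 27.6, and endothelial markers to 5.29 to 9.24 against 5.68 to 8.22. Of the defining markers, TYROBP had 0 counts in all 12 libraries and PTPRC at most 2, whereas CD14 had 16 to 39 counts on the first side and 1 to 3 on the second. PECAM1 had 36 to 72 counts on the first side and at most 1 on the second. The other endothelial markers did not follow it. VWF overlapped (52 to 151 against 115 to 137 counts), and CDH5 and KDR had at most 1 and 4 counts. Of the fibroblast markers, DCN had 18 to 20 counts on the first side and 0 to 2 on the second. COL1A1 overlapped (309 to 661 against 332 to 405 counts), COL3A1 and PDGFRB were lower in CPM on the first side, and LUM had at most 2 counts. The part of these markers in the differences between libraries was not tested, and a mixture of cells and a change within cells cannot be told apart in bulk RNA. Counts of the members per count of AXL, a receptor kinase of DU-145, were also compared. CXCL1 had 1.77, 1.37 and 1.62 counts per AXL count in vehicle 2, vehicle 3 and DOX 1, and between 0.00162 and 0.00356 in the 6 DU-145 samples. TLR4, the receptor for lipopolysaccharide, had 354, 520 and 405 counts in those LNCaP-AI libraries, at most 2 in the others and 0 in every DU-145 sample. The ratios to AXL of CXCL1, IL1A and TLR4 in these LNCaP-AI libraries were thus above those in DU-145. So were those of CXCL8 (0.584, 0.39 and 0.527, against 0.0401 to 0.0567) and LIF (0.173, 0.156 and 0.202, against 0.0544 to 0.121). That of PLAU (0.28, 0.248 and 0.264, against 0.457 to 0.713 in DU-145) was below. That of CSF1 (0.126, 0.143 and 0.14) was close to vehicle-treated DU-145 (0.118 to 0.143) and above DOX-treated DU-145 (0.0644 to 0.072).

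DOX and vehicle libraries were also set side by side within each side of the division, with no test. DOX 1 against the mean of vehicle 2 and 3 gave log2 differences under 0.5 in size for all 33 genes, with a median of -0.14 (all genes -0.004). The mean of DOX 2 and 3 against vehicle 1 could be formed for the 21 genes with over 10 counts in at least 1 of the 3 libraries, with a median of -0.14 (all genes -0.05) and 17 of the 21 under 0.5 in size. The other 4 were TRAF2, TNFAIP2, IL11 (-0.69) and BIRC3 (0.57). Of the 21 genes, 18 had the same sign on both sides. The shares of all genes with the same sign or under 0.5 in size were not computed. On the first principal component DOX 1 was at 65.7, against 84.7 and 86.4 for vehicle 2 and 3. Vehicle 1 was at -66.4, against -85.1 and -85.3 for DOX 2 and 3. DOX and the division can therefore not be fully told apart within a side either. Among the 18 genes, TRAF2 was lower with DOX (-0.37 and -0.85), as were TNFAIP2 (-0.42 and -0.73), REL (-0.25 and -0.48) and TNFAIP3 (-0.25 and -0.47). NFKBIA (0.27 and 0.47), TNIP1 (0.28 and 0.29) and NFKB2 (0.27 and 0.30) were higher.

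Whether DOX acted differently in LNCaP-AI and DU-145 was tested by the interaction of line and treatment in a fit of all 12 samples. Of 35 genes tested, edgeR called 0, where among all 16800 genes the DOX effect was higher in LNCaP-AI for 5.43% and lower for 3.76%. At an unadjusted p under 0.05 there were 5, TNIP1, LIF, ICAM1, NFKBIA and RELA, with adjusted p from 0.064 to 0.164. DESeq2 called 3, NFKBIA (0.77 on the log2 scale, adjusted p = 0.0234), LIF (-0.47, adjusted p = 0.0331) and TNIP1 (-0.56, adjusted p = 0.0116). Without LNCaP-AI vehicle 1 edgeR called LIF and TNIP1, where 2604 of all 16620 genes were called. Without LNCaP-AI DOX 1 edgeR called 8 genes, PLAUR, CCL20, TNFAIP3, PLAU, TRAF2, TNIP1, CXCL1 and CXCL8, all with a lower DOX effect in LNCaP-AI. In that fit 3471 of all 16296 genes were called. The DOX libraries left, DOX 2 and DOX 3, lay on the low side of the division, so DOX and the division cannot be told apart there. For PLAUR the interaction was -2.77 on the log2 scale (SE 1.61, adjusted p = 0.317) with all samples, so that its rise in DU-145 is not shown to differ from LNCaP-AI.

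Between the vehicle-treated lines most of these genes were higher in DU-145. Of 32 genes tested, 20 were higher in DU-145 and 1 was lower, and 11 did not pass the test, where 30.2% of all 15628 genes were higher and 35% lower. The filter dropped IL1A, IL1B and PTGS2, which were high in LNCaP-AI vehicle 2 and 3 only. With no filter 20 were higher and 6 lower in DU-145, where 11212 of all 32369 genes were called. The median log2 difference was 1.65 over the 32 genes and -0.06 over all genes. ICAM1 (log2 difference 3.14, SE 0.109, adjusted p = 3.12e-06), LIF (2.99, SE 0.133, adjusted p = 6.44e-06) and NFKBIA (2.33, SE 0.201, adjusted p = 7.01e-05) were higher in all 3 DU-145 vehicle samples than in any LNCaP-AI vehicle sample. RELA and NFKB1 did not pass the test, with log2 differences of 0.14 and -0.29. With the filter, CXCL1 was the gene that was lower in DU-145 (log2 difference -4.60, SE 1.62, adjusted p = 0.0392). It had 17 to 39 counts there, 1726 and 2313 in LNCaP-AI vehicle 2 and 3 and 0 in vehicle 1. The call was lost when any 1 of the DU-145 vehicle samples was left out (adjusted p from 0.109 to 0.131) and without LNCaP-AI vehicle 2 or 3 (0.104 and 0.0974). The value rests on vehicle 2 and 3. Without vehicle 1, 28 of 32 genes were called, 24 higher and 4 lower in DU-145, where 71.5% of all genes were called.

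Upstream members of the pathway were counted from a list of 46 receptor, adaptor, kinase and ubiquitin-system genes. In DU-145 44 were tested, 13 rose, 13 fell and 18 did not pass the test, close to the shares of all genes (26.3% rose and 25.3% fell). None that passed reached a log2 fold change of 1 in size. In LNCaP-AI, where 7.22% of all genes rose and 5.52% fell, 44 were tested, 2 rose and 1 fell. These were MYD88, the adaptor of interleukin-1 and Toll-like receptors (log2 fold change 0.43, adjusted p = 0.0251), its kinase IRAK4 (0.52, adjusted p = 0.0192) and the adaptor TRAF5 (-0.71, adjusted p = 0.0344), and they were named after their values were seen. All 3 calls were lost without DOX 2, without DOX 3 and without vehicle 3 (adjusted p from 0.052 to 0.158), with the direction kept. Those of MYD88 and TRAF5 were also lost without vehicle 2 (0.0523 and 0.0688), and that of MYD88 with no filter (0.0629), with the direction kept. Each also passed in DU-145 in the same direction (0.53, 0.78 and -0.76). Their LNCaP-AI levels kept to the treatment and not to the division, MYD88 being at 51.0 to 54.5 CPM with vehicle and at 66.9 to 74.3 with DOX. In the interaction 0 of 46 were called by edgeR, where the DOX effect was higher in LNCaP-AI for 5.43% of all genes and lower for 3.76%.

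Of 13 cytokine receptor genes, 5 were tested in DU-145 and 6 in LNCaP-AI. In DU-145 1 rose and 1 fell, where 26.3% of all genes rose and 25.3% fell. In LNCaP-AI 3 rose and 0 fell, where 7.22% of all genes rose and 5.52% fell. In the interaction edgeR called 1 of 6, where the DOX effect was higher in LNCaP-AI for 5.43% of all genes and lower for 3.76%. LIFR, IL6ST and IL11RA were named after their values were seen. IL6R, the ligand-binding chain for interleukin-6, rose in DU-145 from 71.0, 69.6 and 64.5 CPM to 169, 158 and 157 (log2 fold change 1.24, SE 0.0701, adjusted p = 6.18e-11), and in LNCaP-AI from 24.7, 20.6 and 21.0 to 34.7, 42.4 and 48.6 (log2 fold change 0.92, SE 0.152, adjusted p = 0.0195). The DOX and vehicle samples did not overlap in either line. LIFR, which binds LIF, fell in DU-145 (log2 fold change -0.54, adjusted p = 4.15e-05). IL6ST, the signaling chain shared by interleukin-6, interleukin-11 and LIF, rose in LNCaP-AI from 125, 118 and 109 CPM to 166, 192 and 189 (log2 fold change 0.64, adjusted p = 0.0158), and its DOX effect differed from that in DU-145 by 0.82 on the log2 scale (SE 0.159, adjusted p = 0.0114). IL11RA, the interleukin-11 receptor, also rose in LNCaP-AI (log2 fold change 0.70, adjusted p = 0.0418), from counts of 47 to 94. The LNCaP-AI calls of IL6R, IL6ST and IL11RA were lost without DOX 2 and without DOX 3 (adjusted p from 0.096 to 0.179). That of IL11RA was also lost when any 1 vehicle sample was left out (0.0674 to 0.0836) and with no filter (0.1825). LIFR lost its call in the fit of all 12 samples (adjusted p = 0.0881).

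Some values carry limits of the counting. CXCL1 shares 4.57% of its 50-base stretches with CXCL2, CXCL2 shares 9.63% with CXCL3, and BIRC2 and BIRC3 share under 0.23%, so reads there could be split between them. Exons of ICAM1, PLAU, IL6, PTGS2, LIF, TNFAIP3 and NFKBIB overlap genes of the other strand, and those of REL, IL32 and NFKBIZ genes of the same strand, and how strand was used in the counting is not given in the sources used here.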

How the data were processed

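RNA was sequenced from 12 samples, 3 per group, of the 2 tet-MUC1shRNA lines, DU-145 and LNCaP-AI, under vehicle or DOX. The authors isolated total RNA with Trizol, prepared TruSeq stranded mRNA libraries and deposited gene-level read counts that were not normalized. The submitters' processing notes name CASAVA 1.8.2, STAR 2.7.0, DESeq2 1.24.0 and the build GRCh38.p7. The counter and its use of strand are not given in the sources used here. Of 58037 identifiers, 56948 matched a symbol by Ensembl ID. Positions and exon lengths are from GENCODE release 44.

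Groups were compared with edgeR 4.0.16 in R 4.3.3 (TMM, glmQLFit, glmQLFTest, two-sided) on every gene that reached 10 counts in 3 or more samples of the fit, with Benjamini-Hochberg adjustment over all of them and calls at an adjusted p under 0.05. Each standard error is the size of the log2 fold change over the square root of F. Alternatives were DESeq2 1.42.0, its size factors, upper-quartile normalization, no filter, 1 CPM in 3 samples, a replicate block, all 12 samples in 1 fit and leaving out each sample. Per-sample values are given for MUC1, for genes called with DOX that moved by 0.5 or more on the log2 scale, and for RELA, NFKB1, NFKB2, NFKBIA, CXCL8, IL6 and TNF. Those of other genes were added because the LNCaP-AI libraries divide. The members and all lists were chosen with earlier results of these data known.

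No replicates agreed within sampling noise (smallest chi-square per degree of freedom 2.53, LNCaP-AI DOX 2 and 3). Floors are 3 counts and cover counting error only. On simulated counts with 200 genes changed by a log2 fold change of 2, 100% were recovered in DU-145 (21 false calls among 13481 genes), 83.5% in LNCaP-AI (9 among 15511), 88.5% in the interaction (6 among 16058) and 95.5% between the lines (13 among 15117). The changed genes were drawn from those above a set level. Libraries were drawn independently, with no shared division such as that of the LNCaP-AI samples. The simulation checks the code, and its shares do not give the power or the false calls for the genes described here.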

Additional observations from a re-analysis of the deposited data

How the results depend on the processing

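With a replicate block, 17 genes were called in DU-145, 0 in LNCaP-AI, 0 in the interaction and 20 between the lines, where the call of CXCL1 was lost (adjusted p = 0.185), as it was in the fit of all 12 samples (0.0799). With the block no gene at all was called in LNCaP-AI by edgeR, with 2909 at an unadjusted p under 0.05, and IL6ST lost its call in the interaction (adjusted p = 0.106). The numbers do not pair the samples, since same-numbered deviations correlated at 0.127, -0.0912 and 0.0763 in DU-145 and at -0.94, -0.812 and -0.84 in LNCaP-AI. In DU-145, where 17 genes were called, the fit of all 12 samples called 5 and the other settings 16 to 19. The LNCaP-AI samples share in the estimate of spread in that fit. In LNCaP-AI, DESeq2 called 1, the fit of all 12 samples 3, and leaving out a sample 0 to 2. In the interaction DESeq2 called 3 and leaving out a sample gave 0 to 8. Between the lines leaving out a sample gave 15 to 28, and 26 genes were called with no filter, 20 higher and 6 lower in DU-145. Of 240 single-gene values, which do not include the fit of all 12 samples, none reversed, 224 kept their direction and side of the threshold and 16 lost the call. These were 5 of CCL20, 2 of TNFAIP3, 3 of MUC1 in LNCaP-AI (adjusted p up to 0.166) and 6 of MUC1 in the interaction (adjusted p up to 0.14), and the cause was not tested. Between the lines the median of all genes was -0.06 with TMM and -0.16 with upper-quartile normalization. Low counts limit CCL20, IL6, CSF2, CCL2, TNF, LTB and, in DU-145, IL1A, IL1B and PTGS2.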
